A study of Mus musculus with 6 samples.

Results

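The peroxisome proliferator-activated receptors (PPARs) Ppara, Ppard and Pparg and 7 of their classic lipid target genes, Plin2, Angptl4, Pdk4, Vnn1, Fabp5, Ucp2 and Cd36, were followed in KPC1199 cells with and without knockdown of ACSL5. These 10 genes were taken by name from the 57508 genes of the deposited tables, and each name matched 1 row. KPC1199 is a mouse cell line labelled as pancreatic tumour cells. All 6 libraries come from this line, 3 with the genotype WT and 3 with the genotype ACSL5 knockdown, called KO in the titles. The libraries are named siACSL5_CY3 in the WT group and siACSL5_2260 in the knockdown group. The labels do not explain these names, give no time after treatment, and do not tell whether the 3 libraries of a group are separate cultures. The p-values therefore measure the spread between libraries, which may be technical.

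PPARs are nuclear receptors that bind DNA together with a retinoid X receptor (RXR) and switch on genes when a fatty acid or a fatty acid derivative occupies their ligand pocket. Ppara is best known for fatty acid oxidation in liver, Ppard is expressed in most tissues, and Pparg drives lipid storage and the formation of adipocytes. ACSL5 joins long-chain fatty acids to coenzyme A, a step that takes free fatty acids into lipid synthesis or oxidation. The series compares the 2 groups to learn what ACSL5 does in pancreatic ductal adenocarcinoma.

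Expected counts per library totalled 21794244 to 29996194. Acsl5 itself was at 267.7 ± 3.54 CPM (SD, n = 2) in WT replicates 2 and 3, at 342 CPM in WT replicate 1 and at 54.2 ± 3.91 CPM (SD, n = 3) in knockdown cells, and no knockdown library reached a WT library. CPM are counts relative to library size, scaled by TMM, which corrects for library composition. WT replicate 1 stood apart, since its log2 CPM correlated at Pearson's r of 0.902 to 0.921 with any second library, computed across genes, which are not independent replicates, and all remaining pairs were at 0.972 to 0.992. Values are therefore given for the 6 libraries and for the 5 libraries without WT replicate 1. Calls required an adjusted p under 0.05. In the 6 libraries edgeR called 0 of 14679 genes (0.0%), although 2351 (16.0%) had an unadjusted p below 0.05, and DESeq2 called 1127 genes and limma-voom 8. In the 5 libraries edgeR called 5193 of 15152 genes (34.3%), 2471 higher (16.3%) and 2722 lower (18.0%) in knockdown cells, and on log2(TPM + 1) limma called 1459 higher and 1008 lower. Epithelial markers summed to between 8056 and 9308 TPM (transcripts relative to all transcripts, per length) in every library, carried by Krt19, Krt8 and Krt18, while Cldn4 was listed at 0. The adipocyte markers Plin1, Lep, Retn and Cfd were also listed at 0 in the 6 libraries. So were the macrophage marker Adgre1 and the endothelial markers Cdh5, Tek and Emcn. The remaining adipocyte markers were not, with Adipoq at up to 0.25 TPM and Cidec at 0.81 to 3.55 TPM. The leukocyte marker Ptprc was at most at 0.03 TPM and the macrophage receptor gene Csf1r at most at 0.13 TPM. Of 8 macrophage markers 3 reached 1 TPM (Cd14, Mrc1 and Cd68), and the list summed to 69.77 to 104.55 TPM in WT and 111.25 to 114.02 TPM in knockdown cells. The sum was higher in every knockdown library, but its genes did not move one way. Without WT replicate 1 Cd14 rose (log2 fold change 0.44, adjusted p = 2.19e-04), Mrc1 fell (-0.88, adjusted p = 2.81e-06) and Cd68 was at 0.21 (adjusted p = 0.348). The part of these genes in the results below was not tested. Adipocyte markers summed to 0.81 to 3.55 and 2.14 to 3.06 TPM, endothelial ones to 0.08 to 0.11 and 0.12 TPM, and fibroblast ones to 42.34 to 101.95 and 76.13 to 84.68 TPM in WT and knockdown cells, with 1 of 6, 0 of 5 and 4 of 8 genes at 1 TPM or more.

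In the 5 libraries, 4 of the 9 members that passed the count filter rose in knockdown cells and 0 fell. These were Vnn1, Angptl4, Plin2 and the receptor gene Ppard, with log2 fold changes of 1.45, 0.63, 0.36 and 0.20. Among all genes tested, 34.3% were called in either direction and 16.3% were called higher. In the 6 libraries edgeR called 0 of these 9 members (0.0% of all genes), and 2 of the 9, Vnn1 and Pdk4, had an unadjusted p below 0.05 (16.0% of all genes). In the 5 libraries 5 of the 9 had an unadjusted p below 0.05, the 4 called genes and Pdk4, against 44.0% of all genes. Every knockdown library lay above every WT library for 3 members, Vnn1, Pdk4 and Ppard, against 18.7% of all genes, and below them for 0 members, against 15.6%. With WT replicate 1 left out, 5 members lay above, with Plin2 and Angptl4 added, against 30.4%, and 1 below, Ppara, against 29.3%. With 3 libraries against 3, the two-sided exact permutation test over 20 assignments could not give a p below 0.1, which Vnn1, Pdk4 and Ppard reached. The rise of a transcript in bulk RNA cannot be told apart from a larger share of cells that carry it.

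**Figure D1:**
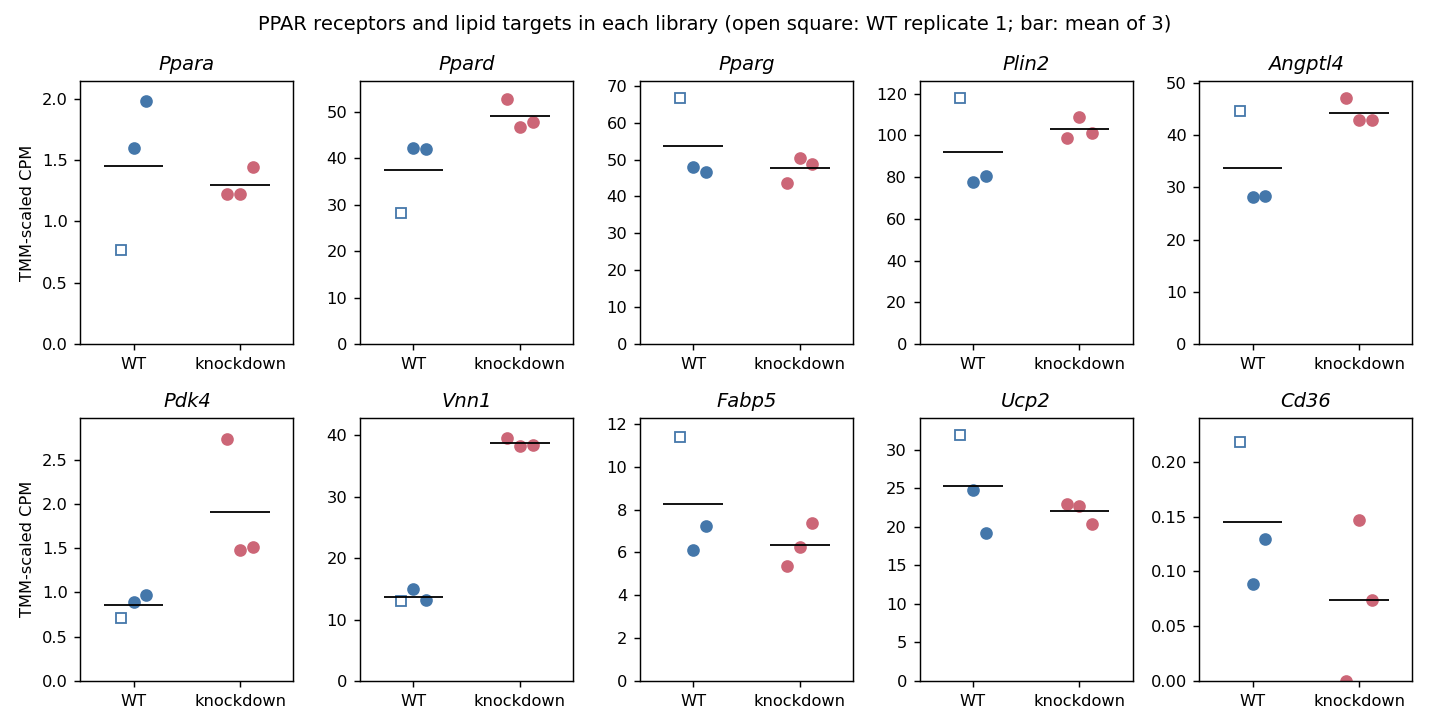
TMM-scaled CPM of the 10 genes, 1 panel per gene with its own linear axis from 0, WT on the left and ACSL5 knockdown on the right; points are libraries, the open square is WT replicate 1 and the bar is the mean of 3 libraries. Vnn1 shows the widest gap, with the WT libraries at 13.0 to 14.9 CPM and the knockdown libraries at 38.2 to 39.5 CPM, while WT replicate 1 is the highest WT library for Plin2, Angptl4, Pparg, Fabp5 and Ucp2.

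Among the receptors, Pparg had the most transcripts per length, followed by Ppard, and Ppara was near 1 TPM. Ppard (GRCm38 chr17:28232700-28301474, plus strand) measured 28.3, 42.2 and 42.1 CPM in WT cells (replicates 1 to 3) and 52.7, 46.8 and 47.8 CPM in knockdown cells (replicates 1 to 3). All knockdown libraries were above all WT libraries, and WT replicate 1 was the lowest. The log2 fold change was 0.20 (SE 0.0664, edgeR adjusted p = 0.0365) in the 5 libraries and 0.39 (SE 0.19, adjusted p = 0.373) in the 6. This small rise sat close to the threshold, and 10 of 17 alternatives of the 5-library comparison called it. It was not called without WT replicate 2 (adjusted p = 0.161), without WT replicate 3 (adjusted p = 0.191) or without knockdown replicate 3 (adjusted p = 0.0545), and in each of these the log2 fold change was between 0.20 and 0.23. It was also not called with each library's trend with GC content removed (0.19, adjusted p = 0.0601), or on log2(TPM + 1) and log2(TPM + 0.1), with 0.18 each (adjusted p = 0.128 for both).

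Pparg measured 66.7, 47.9 and 46.7 CPM in WT cells (replicates 1 to 3) and 43.7, 50.4 and 48.7 CPM in knockdown cells (replicates 1 to 3). Apart from the high WT replicate 1, the libraries of the groups overlapped. Its log2 fold change was -0.01 (SE 0.0743, adjusted p = 0.966) in the 5 libraries and -0.18 (SE 0.181, adjusted p = 0.634) in the 6. Ppara had few counts, 14, 36 and 61 in WT cells (replicates 1 to 3) and 29, 33 and 39 in knockdown cells (replicates 1 to 3). On the CPM scale these were 0.764, 1.6 and 1.98 in WT and 1.22, 1.22 and 1.44 in knockdown cells, so that WT held both the lowest and the highest library. The log2 fold change was -0.49 (SE 0.283, adjusted p = 0.213) in the 5 libraries and -0.18 (SE 0.383, adjusted p = 0.829) in the 6.

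The deposited TPM of Ppara did not follow its counts. The mean was 0.673 ± 0.342 TPM (SD, n = 3) in WT and 0.97 ± 0.18 TPM (SD, n = 3) in knockdown cells, so that TPM was higher where CPM was lower. TPM divides each count by a transcript length. That this length was set for each library is inferred from the ratios that follow, which for Ppara rest on 14 to 61 counts. The ratio of count to TPM, scaled so that the median gene has its deposited length, implied 1890 to 3812 bases for Ppara, with the highest value in WT replicate 3 and the lowest in knockdown replicate 2. The deposited length of Ppara is 2519 bases. Whether the transcript mix differed between libraries was not tested.

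Of all receptor transcripts in TPM, Pparg made up 81.1%, 65.6% and 65.1% in WT cells (replicates 1 to 3) and 64.1%, 64.5% and 63.6% in knockdown cells (replicates 1 to 3). Ppard made up 18.2%, 33.1% and 33.4% in WT and 34.6%, 33.9% and 35.2% in knockdown cells. The share of Pparg was lower and that of Ppard higher in every knockdown library than in any WT library (two-sided exact permutation p = 0.1 for each, the smallest possible). Outside WT replicate 1 the difference was small, with Ppard at 33.3 ± 0.23% (SD, n = 2) in WT and 34.6 ± 0.664% (SD, n = 3) in knockdown cells. Shares of 1 total move against each other, so the changes of Pparg and Ppard here are not independent.

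**Figure D2:**
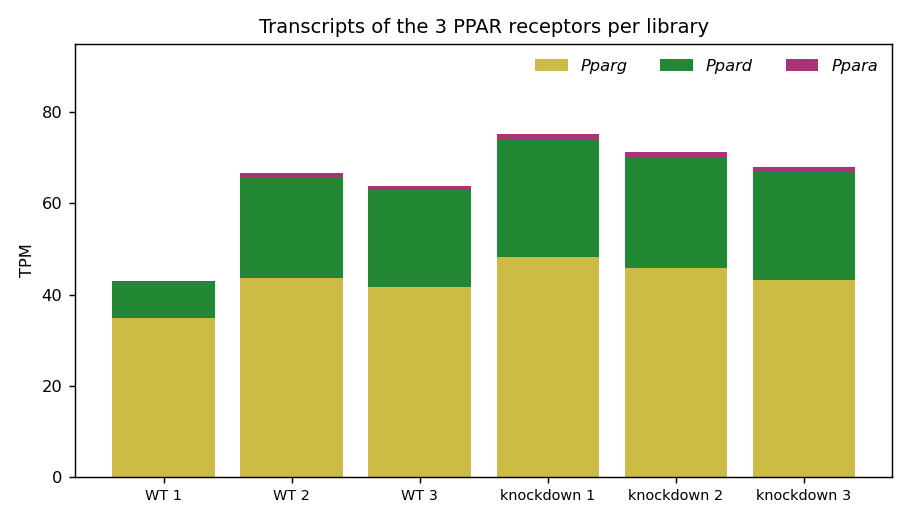
TPM of the 3 PPAR receptors stacked for each library, WT replicates 1 to 3 followed by knockdown replicates 1 to 3, on a linear axis from 0. Pparg is the largest part everywhere, Ppara is a thin line on top, and WT replicate 1 has the lowest sum, 42.9 TPM, against 63.8 to 75.2 TPM in the other libraries.

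PPARs with RXR bind a pair of AGGTCA elements spaced by 1 base, AGGTCANAGGTCA, and the promoters of the members were searched for both on both strands. RefSeq promoters of GRCm38.p6, 250 bases before to 50 after a start site, were found for 7 of the 10 members, with 9 promoters in all. Vnn1, Angptl4 and Fabp5 had no entry. The spaced pair was in 0 of these 9, and in 0.0396% of 32851 promoters of all genes. With a sequence this rare, its absence from 9 promoters cannot tell whether PPARs bind these genes. The single element, which each spaced pair also contains, was in 4 of the 9, those of Plin2 and Cd36 and 2 of the 3 of Pparg, and in 16.3% of all promoters. The promoters of Plin2 and Ppard are shown because these are the members that rose and have an entry; capitals mark AGGTCA, or TGACCT where it is on the other strand.
Plin2: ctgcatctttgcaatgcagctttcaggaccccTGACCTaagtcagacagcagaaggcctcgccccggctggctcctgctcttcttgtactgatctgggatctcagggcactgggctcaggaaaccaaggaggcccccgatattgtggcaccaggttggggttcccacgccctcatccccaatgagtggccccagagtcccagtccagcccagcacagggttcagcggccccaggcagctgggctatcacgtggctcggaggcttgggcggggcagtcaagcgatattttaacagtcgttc
Ppard: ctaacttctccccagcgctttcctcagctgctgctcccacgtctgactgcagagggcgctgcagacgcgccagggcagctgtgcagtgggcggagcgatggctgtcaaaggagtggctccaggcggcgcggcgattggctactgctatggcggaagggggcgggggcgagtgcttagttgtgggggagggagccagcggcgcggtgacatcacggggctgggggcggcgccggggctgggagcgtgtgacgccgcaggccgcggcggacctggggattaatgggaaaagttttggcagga
The Plin2 promoter (GRCm38.p6, chr4:86670010-86670309, minus strand) has its element on the strand opposite to the gene, starting at -218 from the start site. The Ppard promoter (GRCm38.p6, chr17:28232504-28232803, plus strand) has none in this window.

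Plin2 (GRCm38 chr4:86648386-86670060, minus strand) encodes perilipin 2, which coats lipid droplets, and had the highest TPM of the 10 genes in both groups. It measured 118, 77.9 and 80.6 CPM in WT cells (replicates 1 to 3) and 98.7, 109 and 101 CPM in knockdown cells (replicates 1 to 3). The knockdown libraries were above WT replicates 2 and 3 and below WT replicate 1. In the 5 libraries Plin2 rose 1.3-fold. Its mean went from 79.26 ± 1.88 (SD, n = 2) up to 102.8 ± 5.42 CPM (SD, n = 3), or 0.36 in log2 (SE 0.0588, adjusted p = 0.00102), and all 17 alternatives of that comparison called it. In the 6 libraries the log2 fold change was 0.16 (SE 0.196, adjusted p = 0.695). In TPM, WT replicate 1 was the lowest library, at 58.24 against 73.49 and 76.1 in WT replicates 2 and 3 and 92.97 to 101.29 in knockdown cells. The groups thus overlapped in CPM and did not overlap in TPM. The share of all genes without overlap in TPM was not counted. On log2(TPM + 1) over the 6 libraries limma did not call Plin2 (0.47, adjusted p = 0.398). The median log2 fold change over all genes was 0.262 there, against -0.02 in edgeR.

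Angptl4 (GRCm38 chr17:33773750-33781830, minus strand) encodes a secreted inhibitor of lipoprotein lipase. It measured 44.6, 28.2 and 28.3 CPM in WT cells (replicates 1 to 3) and 47, 42.8 and 42.8 CPM in knockdown cells (replicates 1 to 3). WT replicate 1 lay among the knockdown libraries, and the remaining WT libraries were below all of them. Angptl4 rose 1.56-fold in the 5 libraries. Its mean went from 28.27 ± 0.0464 (SD, n = 2) up to 44.19 ± 2.41 CPM (SD, n = 3), or 0.63 in log2 (SE 0.0689, adjusted p = 1.03e-04). All 17 alternatives called it. In the 6 libraries the log2 fold change was 0.39 (SE 0.214, adjusted p = 0.41). In TPM it was at 16.46 to 19.66 in WT and 26.64 to 31.67 in knockdown cells, with no overlap. On log2(TPM + 1) over the 6 libraries limma did not call it (0.65, adjusted p = 0.333), with a median over all genes of 0.262.

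Vnn1 (GRCm38 chr10:23894688-23905343, plus strand) encodes vanin 1, a pantetheinase anchored at the cell surface that releases cysteamine and pantothenate, the vitamin from which coenzyme A is made. It showed the largest called change among the 10 genes. It measured 13, 14.9 and 13.2 CPM in WT cells (replicates 1 to 3) and 39.5, 38.2 and 38.5 CPM in knockdown cells (replicates 1 to 3). In CPM the groups were far apart, and WT replicate 1 sat with the other WT libraries. In TPM, WT replicate 1 was the lowest library, at 4.63 against 10.87 and 9.1 in WT replicates 2 and 3. The knockdown libraries were at 26.75 to 29.31 TPM, above all WT libraries. The mean CPM was 2.82-fold higher in knockdown than in WT cells over the 6 libraries and 2.75-fold higher without WT replicate 1. The log2 fold change was 1.5 (SE 0.126, adjusted p = 0.0619) in the 6 libraries, where Vnn1 ranked in place 3 of 14679 genes by p. In the 5 libraries it was 1.45 (SE 0.0843, adjusted p = 2.66e-06), in place 27 of 15152 by p, and 1.91% of the genes had a higher log2 fold change. All 17 alternatives of the 5-library comparison and 7 of 19 of the 6-library comparison called it. The 7 included DESeq2 (adjusted p = 1.28e-25), limma-voom (adjusted p = 0.0442) and the removal of each library's trend with gene length (adjusted p = 0.0098). They also included leaving out WT replicate 1, which is the 5-library comparison, and quality weights, where that library weighed 0.0312. Vnn1 was not called in limma on log2(TPM + 1) (1.72, adjusted p = 0.21) or with the replicate number as a block (1.5, adjusted p = 0.47). Nor did edgeR call it without any 1 library other than WT replicate 1 (adjusted p = 0.28 to 0.513). Vnn1 had 337 and 406 counts in WT replicates 2 and 3 and 940 to 1044 in knockdown cells.

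Vnn3, a related vanin gene, did not move in this way, with 2.37 CPM in WT replicates 2 and 3 and 2.48 CPM in knockdown cells (log2 fold change 0.05, SE 0.236, adjusted p = 0.894). The difference between Vnn1 and Vnn3 was not tested. In TPM, Vnn1 was in place 7 of the 10 genes in WT and in place 4 in knockdown cells. It then overlapped with Angptl4, at 26.75 to 29.31 TPM against 26.64 to 31.67 TPM.

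Pdk4 (GRCm38 chr6:5483351-5496309, minus strand) encodes pyruvate dehydrogenase kinase 4, which restrains the entry of pyruvate into the tricarboxylic acid cycle when fatty acids are burnt. It had only 13, 20 and 30 counts in WT cells (replicates 1 to 3) and 65, 40 and 41 in knockdown cells (replicates 1 to 3). These were 0.71, 0.887 and 0.974 CPM in WT and 2.73, 1.48 and 1.51 CPM in knockdown cells. Every knockdown library was above every WT library, and knockdown replicate 1 was the highest. The log2 fold change was 1.0 (SE 0.359, adjusted p = 0.0527) in the 5 libraries and 1.14 (SE 0.349, adjusted p = 0.222) in the 6. The 5-library value missed the threshold, and 6 of 15 alternatives called it. Leaving out knockdown replicate 1 gave 0.68 (adjusted p = 0.157), and leaving out knockdown replicate 2 gave 1.17 (adjusted p = 0.0494).

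The more abundant kinase genes Pdk1 and Pdk3 fell in the 5 libraries. Pdk1 fell from 208 to 115 CPM in the 5 libraries (log2 fold change -0.87, SE 0.0529, adjusted p = 3.32e-06), and Pdk3 fell from 43.2 to 23.4 CPM (-0.90, SE 0.0716, adjusted p = 1.56e-05). Pdk2 was at 9.72 CPM in WT replicates 2 and 3 and at 11.7 CPM in knockdown cells (0.25, adjusted p = 0.126). Pdk1 and Pdk3 also had negative log2 fold changes in the 6 libraries, -0.82 (adjusted p = 0.095) and -0.96 (adjusted p = 0.0919).

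Fabp5, a carrier of fatty acids in the cytosol that can hand ligands to PPARs in the nucleus, measured 11.4, 6.12 and 7.24 CPM in WT cells (replicates 1 to 3). Its knockdown replicates 1 to 3 had 5.37, 6.27 and 7.38 CPM. WT replicate 1 stood above all other libraries, which overlapped. The log2 fold change was -0.09 (SE 0.168, adjusted p = 0.719) in the 5 libraries and -0.38 (SE 0.279, adjusted p = 0.514) in the 6. Fabp5 is a gene with processed copies elsewhere in the genome, so reads may be shared with them. Cd36, a fatty acid uptake receptor of the plasma membrane, had 4, 2 and 4 counts in WT and 0, 4 and 2 in knockdown replicates 1, 2 and 3, and did not pass the filter. A count of 0 in knockdown replicate 1 allows a level of up to 0.126 CPM (3 counts, counting error only), and with so few counts Cd36 was not compared between the groups.

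Ucp2, an uncoupling protein of the inner mitochondrial membrane, measured 31.9, 24.8 and 19.2 CPM in WT cells (replicates 1 to 3) and 23, 22.7 and 20.4 CPM in knockdown cells (replicates 1 to 3). The knockdown libraries lay within the WT range. The log2 fold change was -0.01 (SE 0.115, adjusted p = 0.966) in the 5 libraries and -0.20 (SE 0.207, adjusted p = 0.642) in the 6. TPM gave another picture of WT replicate 1, which was the highest WT library in CPM and the lowest in TPM, at 8.74 against 23.98 and 21.9 in WT replicates 2 and 3. The length implied by count and TPM was 3385 bases there and 1479 to 2090 bases in the other libraries. On log2(TPM + 1) the 6-library log2 fold change of Ucp2 was 0.46 (adjusted p = 0.587), opposite in sign to that from counts. Over 10067 genes with at least 100 counts in every library, the highest and the lowest implied length of a gene differed by a median factor of 1.18, and by more than 1.5 in 18.9% of genes.

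**Figure D3:**
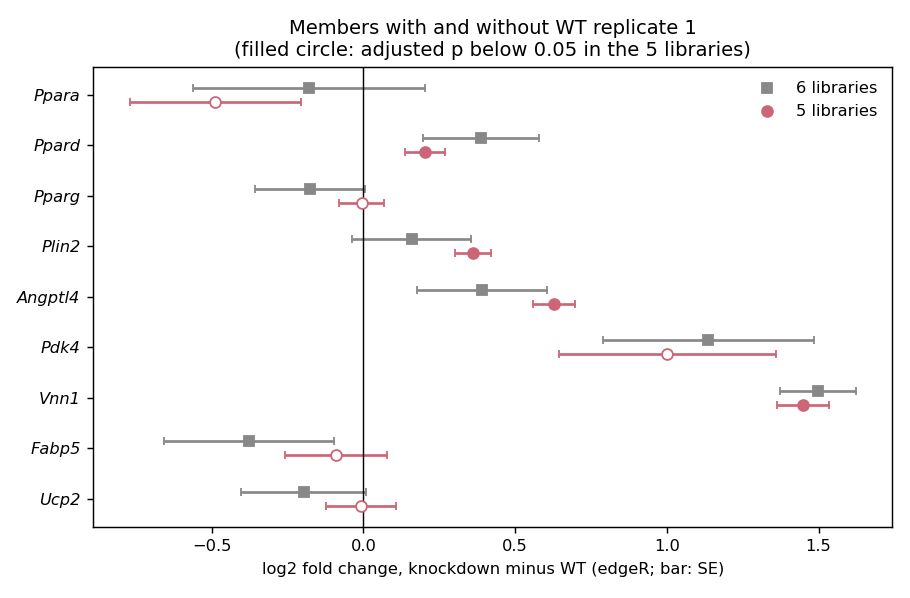
Log2 fold change (knockdown minus WT) of the 9 members that passed the filter, from edgeR, with the standard error as a bar; grey squares are the 6 libraries and circles the 5 libraries without WT replicate 1, filled where the adjusted p is below 0.05. Vnn1 keeps its value in both, at 1.5 and 1.45, while Plin2 moves from 0.16 to 0.36 and Angptl4 from 0.39 to 0.63.

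How WT replicate 1 deviated from the other WT libraries differed from member to member. Its CPM was 1.71 times the mean of WT replicates 2 and 3 for Fabp5, 1.58 times for Angptl4, 1.49 times for Plin2, 1.45 times for Ucp2 and 1.41 times for Pparg. It was 0.924 times that mean for Vnn1, 0.763 for Pdk4, 0.671 for Ppard and 0.428 for Ppara. By deposited length, the 3 shortest members, Fabp5 (987 bases), Pparg (1767) and Plin2 (1888), were all high in it. Vnn1 (2416), Ppara (2519), Ppard (3277) and Pdk4 (3484) were below that mean, but Angptl4 (3308) and Ucp2 (3988) were high. Count and TPM implied other lengths over the 6 libraries, 2105 to 2971 bases for Angptl4 and 1479 to 3385 bases for Ucp2. The length trend removed next was that with deposited length. With each library's trend with gene length removed, the 6-library log2 fold change was -0.04 for Fabp5, -0.03 for Pparg, 0.29 for Plin2 (adjusted p = 0.111) and 1.52 for Vnn1. Angptl4 went from 0.39 to 0.29 (adjusted p = 0.484) and Ucp2 from -0.20 to -0.36 (adjusted p = 0.457), both further from their 5-library values.

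**Figure D4:**
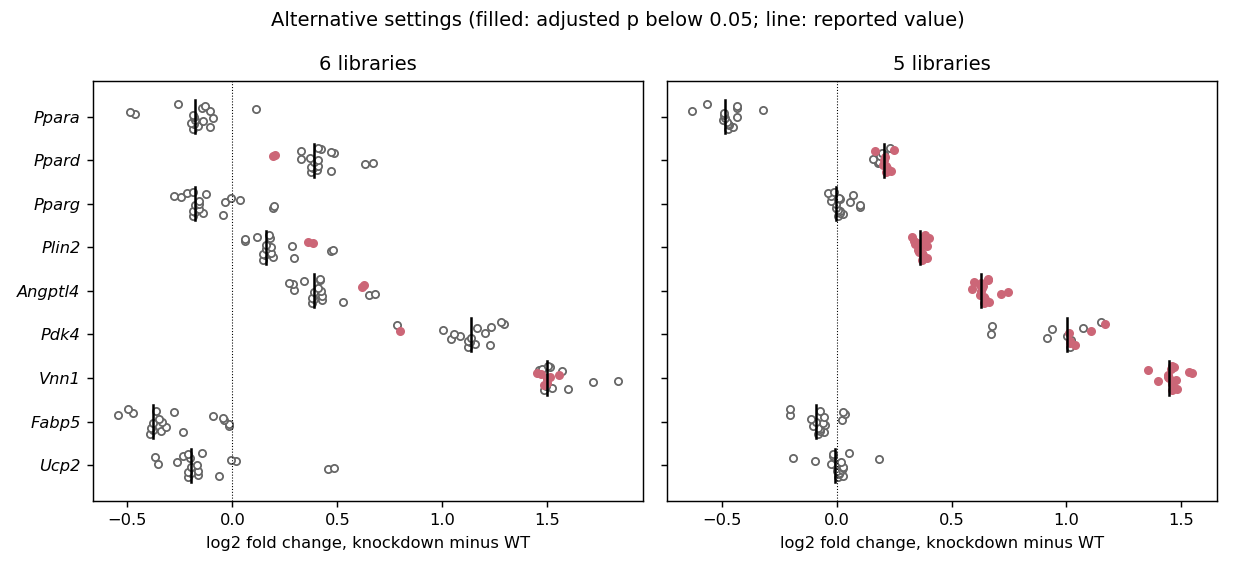
Log2 fold changes of the 9 members under every alternative setting, on the left for the 6 libraries and on the right for the 5 libraries; each circle is 1 setting, filled where the adjusted p is below 0.05, and the black line is the reported value. On the right all circles of Vnn1, Angptl4 and Plin2 are filled; those of Ppard and Pdk4 are partly filled, and those of Pparg, Fabp5 and Ucp2 lie around 0 and are open.

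Apart from the 10 members, 87 genes of PPAR signalling were listed, of which 67 were tested in the 5 libraries. Of these 18 rose and 11 fell, and their median log2 fold change was 0.08, against -0.009 for all genes, of which 16.3% were called higher and 18.0% lower. In the 6 libraries 0 of the 66 tested were called, with a median of 0.13. The medians over the 6 libraries were 0.40 for RXR partners and coregulators, 0.04 for ligand supply, -0.18 for oxidation, 0.04 for uptake and storage, 0.02 for paralogs, -0.15 for hypoxia and 0.36 for glucocorticoid and FOXO genes, lists described next from the 5 libraries. Of the genes chosen by rule from these lists, Acsl3 and Angptl2 changed sign over the 6 libraries on the TPM scale. Genes of RXR partners and coregulators, the proteins that PPARs recruit or release at DNA, were called higher in 8 and lower in 2 of 20, with a median of 0.10. The acetyltransferase gene Crebbp rose by 0.44 (SE 0.0499, adjusted p = 1.28e-04) and the deacetylase gene Sirt1 by 0.44 (adjusted p = 0.00696). Hdac3, the deacetylase of corepressor complexes, fell by 0.42 on the log2 scale (SE 0.0616, adjusted p = 5.64e-04). Over the 6 libraries Crebbp was at 0.74 (adjusted p = 0.319), Sirt1 at 0.53 (adjusted p = 0.181) and Hdac3 at -0.72 (adjusted p = 0.255).

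Of 10 tested genes that release, make or carry PPAR ligands, 3 rose and 1 fell, with a median of 0.25. Among all genes 16.3% were called higher and 18.0% lower. Ptgs2, the inducible cyclooxygenase that starts prostaglandin synthesis, rose from 142 to 232 CPM (0.69, SE 0.0454, adjusted p = 5.4e-06). Among lipases, the hormone-sensitive lipase gene Lipe (0.40, adjusted p = 0.0202) and the adipose triglyceride lipase gene Pnpla2 (0.26, adjusted p = 0.0253) rose. The monoacylglycerol lipase gene Mgll fell (-0.78, adjusted p = 0.0445), with 2.59 CPM in WT replicates 2 and 3 and 1.53 CPM in knockdown cells. With all 6 libraries Ptgs2 was at 0.93 (adjusted p = 0.178), Lipe at 0.70 (adjusted p = 0.345), Pnpla2 at 0.24 (adjusted p = 0.395) and Mgll at -0.75 (adjusted p = 0.242).

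The other PPAR targets did not move one way. Of 55 such genes in both target lists, 40 were tested, 7 rose and 8 fell, with a median of 0.00. For these counts and those of each list below, the shares of all genes were 16.3% called higher and 18.0% called lower. In fatty acid oxidation 5 rose and 6 fell of 24. The peroxisomal thiolase gene Acaa1b was at 0.98 (SE 0.285, adjusted p = 0.0222) and 3.18 CPM in knockdown cells, and the thioesterase gene Acot2 was at 0.47 (adjusted p = 0.0129). The dienoyl-CoA reductase gene Decr1 (-0.37, adjusted p = 0.0263) and the thioesterase gene Acot1 (-0.31, adjusted p = 0.0238) fell. Over the 6 libraries Decr1 was at -0.74 (adjusted p = 0.308), Acot1 at -0.66 (adjusted p = 0.323), Acaa1b at 0.67 (adjusted p = 0.415) and Acot2 at 0.36 (adjusted p = 0.359). Acaa1b has a close paralog, Acaa1a, which was at 0.11 (adjusted p = 0.288), and Acot1 is much like Acot2 in sequence. How reads were divided between such copies is not known, so these values are uncertain. In lipid uptake, storage and adipocyte genes 3 rose and 2 fell of 17, with a median of 0.12. Plin4, a perilipin like Plin2, rose from 4.06 to 6.83 CPM (0.72, SE 0.182, adjusted p = 0.0112), and Nr1h3, which encodes the sterol receptor LXR alpha, rose by 0.58 (adjusted p = 0.00554). The glycerol kinase gene Gk (-0.61, adjusted p = 2.2e-04) and the acyl-CoA synthetase gene Acsl3 (-0.31, adjusted p = 9.19e-04) fell. With all 6 libraries Plin4 was at 1.0 (adjusted p = 0.234), Nr1h3 at 0.38 (adjusted p = 0.423), Gk at -0.40 (adjusted p = 0.397) and Acsl3 at -0.26 (adjusted p = 0.361).

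Among 12 tested paralogs of the members, 1 rose, Plin4, and 5 fell, where 16.3% of all genes were called higher and 18.0% lower. No difference between paralogs and members was tested. Besides Pdk1 and Pdk3 the lower ones included Angptl2 (-0.36, adjusted p = 0.00837), and chosen after their values were seen, Plin3 (-0.17, adjusted p = 0.0362) and Scarb2 (-0.21, adjusted p = 0.0153). Over the 6 libraries Plin3 was at 0.02 (adjusted p = 0.971), opposite in sign, Scarb2 at -0.29 (adjusted p = 0.369) and Angptl2 at -0.17 (adjusted p = 0.677).

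Several members also answer to hypoxia, glucocorticoids or FOXO factors in other cells, so genes of those responses were counted in the same comparison. Of 15 hypoxia-response genes, 2 rose and 5 fell, with a median of -0.08. Those that rose, named after their values were seen, were Kdm3a (0.30, adjusted p = 0.00217) and Slc2a1 (0.26, adjusted p = 0.00262). Over the 6 libraries Kdm3a was at 0.52 (adjusted p = 0.332) and Slc2a1 at 0.22 (adjusted p = 0.428). Ero1a, an oxidase of the endoplasmic reticulum, was at -1.16 (adjusted p = 4.54e-07), the mitophagy receptor gene Bnip3 at -0.64 (adjusted p = 5.09e-05) and the oxygen sensor gene Egln1 at -0.35 (adjusted p = 8.64e-04). Of 14 glucocorticoid and FOXO target genes, 6 rose and 3 fell, with a median of 0.18, where 16.3% of all genes were called higher and 18.0% lower. Irs2, which encodes an insulin receptor substrate, was at 1.56 (adjusted p = 9.08e-07) and the CBP/p300 partner gene Cited2 at 1.35 (adjusted p = 0.024). The phosphatase gene Dusp1 was at 1.27 (adjusted p = 9.04e-05) and Fkbp5 at -0.85 (adjusted p = 2.32e-06). The other called genes of this list are named after their values were seen. Per1 (0.84, adjusted p = 9.39e-06), Sgk1 (0.60, adjusted p = 5.18e-05) and Zbtb16 (0.56, adjusted p = 0.0133) rose. Sesn3 (-0.67, adjusted p = 1.93e-04) and Ccng2 (-0.20, adjusted p = 0.0231) fell. Their signs were the same over the 6 libraries, with none called. With WT replicate 1 included, Ero1a was at -1.1 (adjusted p = 0.0878), Bnip3 at -0.91 (adjusted p = 0.178) and Egln1 at -0.57 (adjusted p = 0.269). Irs2 was then at 1.81 (adjusted p = 0.095), Cited2 at 0.93 (adjusted p = 0.288), Dusp1 at 1.17 (adjusted p = 0.095) and Fkbp5 at -0.77 (adjusted p = 0.105). The part of either response in the rise of Vnn1, Angptl4 or Plin2 was not tested.

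**Figure D5:**
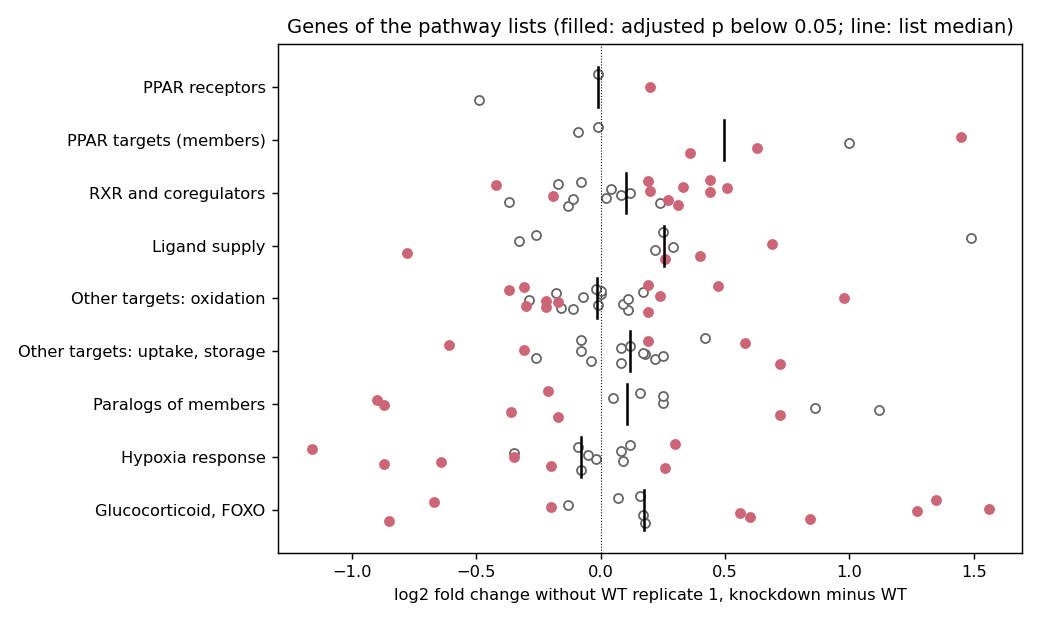
Log2 fold changes (knockdown minus WT, 5 libraries) of the tested genes of each list; each circle is a gene, filled where the adjusted p is below 0.05, and the black line is the list median. The 7 target members have a median of 0.49 over the 6 tested, the other oxidation targets one of -0.02 and the other uptake and storage targets one of 0.12.

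The genes with the profile most like each member were sought among the 10725 genes averaging 5 CPM or more, by the Euclidean distance between centred log2 CPM values over the 6 libraries. The nearest to Vnn1 were Amotl2 (distance 0.199) and Prelp (0.289), and those to Pdk4 were Irx3 (0.319) and Rnf39 (0.33). For Angptl4 they were Eif2b4 (0.0861) and Nop53 (0.0957), and for Plin2 they were Commd8 (0.0907) and Cln3 (0.0921). Ppard was nearest to Pdp2 (0.0475) and Xpc (0.048), Pparg to Idh3a (0.072) and Nup85 (0.0782), and Ucp2 to Derl1 (0.147) and Wrap73 (0.165). Fabp5 was nearest to Miip (0.161) and Samd10 (0.179). Ppara was nearest to an unnamed locus (0.132). These distances describe 6 libraries, 1 of which stands apart, and the same neighbours were not sought without it.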

How the data were processed

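Expected counts and TPM per gene and library were used as the authors deposited them. Per the submitters' processing notes, fastp, HISAT2, StringTie and DESeq2 were used, without versions or roles. The builds in those notes are hg38 and GRCh38, although all members carry mouse identifiers. Which program quantified genes, and its strand setting, is not given in the sources used here. Between 10.1% and 13.0% of count values in a library were not whole. Depth and counting error limit Cd36, Pdk4 and Ppara most.

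Counts were rounded, filtered with filterByExpr, scaled by TMM and compared in edgeR 4.0.16 (R 4.3.3) by its robust quasi-likelihood method, with two-sided tests and Benjamini-Hochberg adjustment over all genes. Alternatives used DESeq2 1.42.0 and limma 3.58.1, pseudocounts of 1 and 0.1 for TPM (genes averaging 1 TPM or more in either group), and lowess trends (span 0.3). The scripts were tested on simulated data with the same spread for every gene and no library apart, unlike these data. There, edgeR called 24% of 1.5-fold rises with 6 libraries and 18% with 5, and 86% and 76% of 2-fold rises. The simulation cannot tell how the calls fare with a library like WT replicate 1. The members and lists were chosen with earlier results of these data known. From each list the text names up to 4 called genes with the largest change and a mean of at least 1 CPM, or 2 abundant ones where none was called, and some genes under this rule and the neighbour search are not reported here. Promoters came from RefSeq, GRCm38.p6. All members were matched to GENCODE M21 by gene identifier.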

Additional observations from a re-analysis of the deposited data

How the results depend on the processing

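Over the 6 libraries the count of called genes, 0, became 1 with library totals, 4 with no filter, 1127 in DESeq2, 8 in limma-voom, 5 with no robust estimation, 879 with the length trend removed, 3 with the GC trend removed and 5937 with quality weights, and ranged from 0 to 5193 over libraries left out, with 5193 without WT replicate 1. The count of called members, 0, became 1 in DESeq2, limma-voom, with no robust estimation and with the length or the GC trend removed, in each case Vnn1. It became 5 with quality weights, where WT replicate 1 had a weight of 0.0312, and ranged from 0 to 4 over libraries left out, with 4 without WT replicate 1. Without WT replicate 1, 5193 called genes turned into 2467 and 2569 with log2(TPM + 1) and log2(TPM + 0.1), and ranged from 2599 to 6188 over libraries left out, with 2599 without WT replicate 3 and 3124 without WT replicate 2. Where 1 WT library was left, it was assumed to vary like the knockdown libraries.

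Signs turned in members that edgeR called in neither comparison, and in Acsl3 and Angptl2, which it called over the 5 libraries but not over the 6. Over the 6 libraries, log2(TPM + 1), log2(TPM + 0.1) and quality weights gave 0.193, 0.198 and 0.036 for Pparg and 0.457, 0.486 and 0.018 for Ucp2. With log2(TPM + 1) and log2(TPM + 0.1), whose medians over all genes were 0.262 and 0.304, Acsl3 was at 0.015 and 0.017 and Angptl2 at 0.14 and 0.17. Ppara ranged from -0.488 to 0.112 over libraries left out. Over the 5 libraries, Pparg was at 0.005 with size factors of DESeq2, 0.028 with library totals, 0.011 with no filter and with 1 CPM in every library of a group, 0.006 in DESeq2, 0.099 and 0.101 with the TPM settings and 0.012 with the GC trend removed, and ranged from -0.04 to 0.068 over libraries left out. Ucp2 was at 0.003 with size factors of DESeq2, 0.026 with library totals, 0.008 with no filter and with 1 CPM, 0.002 in DESeq2, 0.02 in limma-voom, 0.025 and 0.026 with the TPM settings and 0.018 with the length trend removed, and ranged from -0.19 to 0.183 over libraries left out. Fabp5 ranged from -0.207 to 0.036. The cause was not tested.

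Whether the replicate numbers pair the libraries could not be decided. The correlations of deviations from the group means were -0.115, 0.02 and -0.142 for numbers 1, 2 and 3. WT replicate 1, which stands apart, dominates the WT deviations, so these values cannot tell. With the replicate number as a block, 0 genes were called over the 6 libraries and 5753 over the 5, where Pparg was at 0.058, Fabp5 at 0.023 and Ppard at 0.158 (adjusted p = 0.073). Not every library correlated best with its own number. Ppara and Pdk4 did not pass the TPM filter, so they have no value there. Depth limits Cd36, Pdk4 and Ppara.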
